A study of Mus musculus with 5 samples.

Results

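The genes described here code for proteins that coat lipid droplets or release the fat stored in them, followed in nuclei of mouse interscapular brown adipose tissue (iBAT). They are the coat proteins Plin1, Plin2, Plin4, Plin5 and Cidec, the lipases Pnpla2 (ATGL), Lipe (HSL) and Mgll, the ATGL co-activator Abhd5 (CGI-58), and Pnpla3, a relative of ATGL. They were taken by symbol from a fixed list, and all 10 were found among the 32285 genes of both count matrices. Single-nuclei RNA sequencing was performed on 5 samples, each of them 1 library. The first matrix joins WT and Ucp1-STX4KO mice, both 3 months old. Ucp1-STX4KO mice carry floxed STX4 and a Cre recombinase driven by the Ucp1 promoter, so that deletion is limited to cells that express Ucp1. The labels call the controls WT. Elsewhere in the study such controls carried the Cre or the floxed allele alone, which is not stated for this library. The second matrix joins C57BL/6J mice labelled young adult (2 months), middle age (12 months) and old (24 months). The methods name 4 male mice as the source of the tissue, but not the number behind each library. Each barcode ends in a suffix (1 or 2 in the first matrix and 1, 2 or 3 in the second) that separates the libraries, but no source used here ties a suffix to a genotype or an age. Values are therefore given by suffix, and no comparison of genotypes or ages was made.

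A brown adipocyte stores triglyceride in many small droplets. Perilipins and CIDE proteins coat them: Plin1 shields the droplet and holds Abhd5 until beta-adrenergic signalling frees it, Plin2 is a coat found in most cell types, Plin4 covers nascent droplets, Plin5 tethers droplets to mitochondria in oxidative tissues, and Cidec (FSP27) moves lipid from smaller into larger droplets. ATGL, switched on by Abhd5, removes the first fatty acid, HSL the next, and monoglyceride lipase (Mgll), which also degrades the endocannabinoid 2-arachidonoylglycerol, the last. The released fatty acids fuel thermogenesis in brown fat.

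UMIs (unique molecular identifiers, each standing for a captured RNA molecule) were summed over nuclei that fell into a marker gate. A gate is a set of nuclei that a list of 6 to 8 cell type markers assigns to that type with a posterior of at least 0.95, and none of the 60 markers is a member. Levels are UMIs of a gene per 1000000 UMIs of those nuclei (CPM), and all intervals are exact 95% intervals for counting error, since nuclei of 1 library are not replicates and no p-value can be given. The UMI totals were 76195924 and 39857819 for suffixes 1 and 2 of the WT and Ucp1-STX4KO matrix, and 14486189 to 20891602 for the aging libraries. The median barcode held 5998 UMIs in suffix 1 and 3284 in suffix 2 of that matrix, compared with 891 to 1720 in the second matrix, and pairs of libraries shared 23 to 45 barcodes. The nuclei were sorted and labelled as brown adipocytes, but the libraries differed widely in makeup. Of the first matrix, the adipocyte gate held 10315 nuclei of suffix 1 (92.1%) and 4553 of suffix 2 (50%). The 3 aging libraries had 786 (10%), 972 (9.72%) and 441 (4.41%) such nuclei, and there endothelial-gated nuclei numbered 2727, 7094 and 7883. T lymphocyte, B cell or dendritic, and skeletal muscle gates reached 50 nuclei in suffix 2 of the first matrix alone. Stx4a, the targeted gene, stood at 60.0 CPM (58.2 to 61.8) and 49.8 CPM (47.2 to 52.5) in adipocyte-gated nuclei of suffixes 1 and 2, and at 45.4 to 64.9 CPM in the aging libraries, and no genotype was read from it. Ucp1 stood at 459 to 1611 CPM in adipocyte-gated nuclei of the 5 libraries.

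The members lie on 6 chromosomes of GRCm38. Plin4 (17:56100591-56109803) and Plin5 (17:56111601-56117596) are neighbours on the minus strand with 1798 bp between them, and Plin1 (7:79720218-79732903, minus), Lipe (7:25379527-25398710, minus) and Pnpla2 (7:141455198-141460743, plus) share chromosome 7. Cidec (6:113424634-113435760, minus) and Mgll (6:88724412-88828360, plus) lie on chromosome 6, Plin2 on chromosome 4 (86648386-86670060, minus), Abhd5 on chromosome 9 (122351608-122381524, plus) and Pnpla3 on chromosome 15 (84167837-84187236, plus). A gene counted in the matrices overlaps Plin4 (Hdgfl2), Lipe (4732471J01Rik), Abhd5 (A730085K08Rik) and Mgll (Gm26588) on the opposite strand, and the strand setting of the counting is not given in the sources used here.

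RefSeq start sites on GRCm38.p6 gave 14 promoters for the 10 members, and the 250 bases before each start were searched on both strands for 5 motifs. The PPAR direct repeat (AGGNCA, any base, then AGGNCA again) was in 0.338% of all 32851 promoters and in no member's, and the sterol element TCACNCCAC was in 1.05% and in no member's. The cAMP response element TGACGTCA (1.55% of promoters) was found in Pnpla3, the E-box CACGTG (6.02%) in Lipe and Mgll, and AGGTCA (14.0%), a form of the unit that the direct repeat holds, in Abhd5, Plin2 and Plin5. The promoters of 3 members whose levels set them apart are shown 5′ to 3′ on the strand of the gene, with the matched motif in capitals: Pnpla3, the member that followed the lipogenic genes (15:84167566-84167815, plus strand, motif starting 46 bases before the start), Mgll, the member highest outside adipocytes (6:88724162-88724411, plus strand, motif starting 44 bases before the start), and Cidec, which differed widely between nuclei of 1 library (6:113435761-113436010, minus strand, none of the 5 motifs).
Pnpla3: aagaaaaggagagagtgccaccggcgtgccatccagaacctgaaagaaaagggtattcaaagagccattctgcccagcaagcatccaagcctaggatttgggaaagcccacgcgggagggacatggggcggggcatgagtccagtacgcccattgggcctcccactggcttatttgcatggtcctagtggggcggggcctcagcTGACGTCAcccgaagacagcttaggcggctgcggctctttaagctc
Mgll: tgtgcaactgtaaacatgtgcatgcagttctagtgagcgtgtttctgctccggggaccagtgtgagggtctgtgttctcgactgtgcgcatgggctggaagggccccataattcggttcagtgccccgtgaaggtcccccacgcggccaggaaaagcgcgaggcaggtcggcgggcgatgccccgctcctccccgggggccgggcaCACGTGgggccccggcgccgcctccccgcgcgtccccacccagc
Cidec: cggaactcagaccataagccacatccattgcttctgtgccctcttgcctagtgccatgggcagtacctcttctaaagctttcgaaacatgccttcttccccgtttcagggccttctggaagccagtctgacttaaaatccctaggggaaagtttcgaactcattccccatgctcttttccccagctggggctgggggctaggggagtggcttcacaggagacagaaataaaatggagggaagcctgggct
A match is a run of letters, not an occupied site, and these libraries do not measure binding.

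Most members were enriched in adipocytes. In the WT and Ucp1-STX4KO matrix 8 of 10 members had at least 2-fold higher CPM in adipocyte-gated than in the other gated nuclei, beside 13.3% of the 16220 genes tested, with a median ratio of 3.13 for the members and 0.959 for all genes. In the aging matrix 9 of 10 did, beside 19.2% of 15441 genes, with medians of 10.2 and 1.02. Plin2 (ratio 1.51) was not called in the first matrix, and Mgll was called in neither, at 1.19 and 0.744. These ratios pool the libraries of a matrix, which differ in their share of adipocyte-gated nuclei, so differences between libraries enter them. The pooled Plin2 ratio of the first matrix, for example, lay below its ratio in each of the libraries. In single libraries 7 and 8 members were called in suffixes 1 and 2 of the first matrix and 9 in each aging library. The 9 members other than Mgll had larger ratios in the aging matrix. So had 4 adipocyte reference genes that no gate uses (Ucp1, Cidea, Elovl3 and Adrb3), whose median ratio was 3.08 in the first matrix and 10.7 in the aging matrix. The part of free adipocyte RNA or of doublets in these ratios was not tested.

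**Figure D1:**
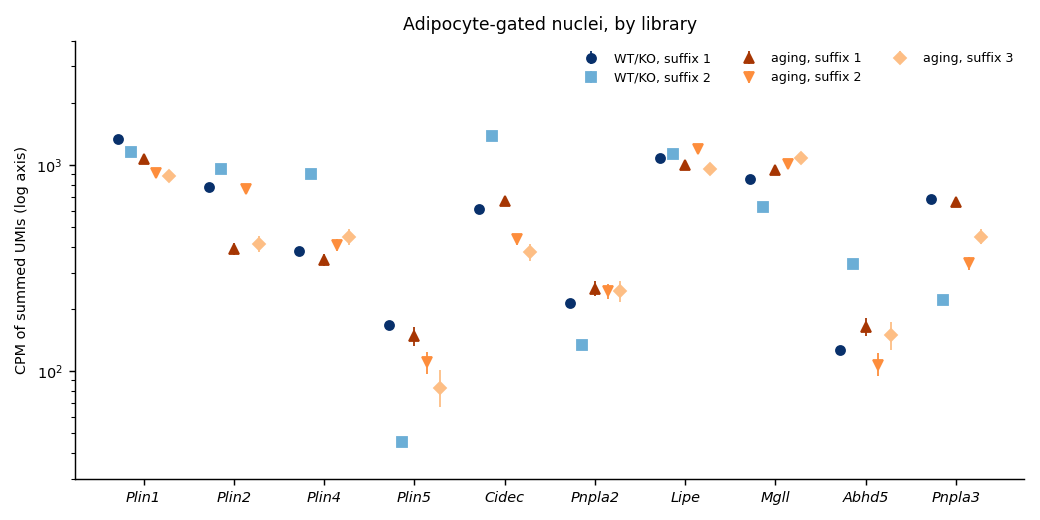
CPM of summed UMIs (log axis) of the 10 members in adipocyte-gated nuclei, with 1 point for each of the 5 libraries and exact 95% Poisson intervals for counting error. Lipe and Plin1 varied least between libraries, whereas suffix 2 of the WT and Ucp1-STX4KO matrix (light blue squares) was lowest for Plin5 and Pnpla3 and highest for Cidec, Plin4 and Abhd5.

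Among the coat proteins, Plin1, the main perilipin of adipocytes, was at 1331 CPM (1322 to 1339) and 1152 CPM (1139 to 1165) in suffixes 1 and 2 of the first matrix and at 1073, 912 and 880 CPM in aging suffixes 1, 2 and 3. Its highest library stood 1.51-fold above its lowest, and the adipocyte gate was its highest gate in 5 of 5 libraries, with an interval above that of every other gate. Against the other gated nuclei the ratio was 2.52 (2.41 to 2.64) and 5.46 (5.21 to 5.71) in the first matrix, compared with 40.9, 11.1 and 31.5 in the aging libraries. Plin4 was at 384 and 904 CPM in the first matrix and at 345, 410 and 447 CPM in the aging libraries, so that suffix 2 of the first matrix stood above the other 4 libraries, which lay close to each other. Cidec showed a similar pattern, with 614 and 1382 CPM in the first matrix and 667, 435 and 376 CPM in the aging libraries. Plin5 went the other way: it was at 168 CPM (165 to 171) and 45.0 CPM (42.6 to 47.6) in the first matrix and at 147, 110 and 82.3 CPM in the aging libraries, lowest in the library where Cidec and Plin4 were highest. Cidec, Plin4 and Plin5 were also highest in the adipocyte gate in 5 of 5 libraries, although in suffix 2 of the first matrix the Plin5 interval overlapped that of the B cell or dendritic gate (29.1 CPM, 7.94 to 74.6).

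Plin2, the broadly expressed coat, was at 781 and 950 CPM in adipocyte-gated nuclei of the first matrix and at 389, 762 and 414 CPM in the aging libraries. Its ratio to the other gated nuclei was 1.69 and 1.63 in the first matrix, compared with 4.22, 4.59 and 2.71 in the aging libraries, lower than that of Plin1 in each library. Macrophage-gated nuclei of suffix 2 in the first matrix reached 985 CPM, which is 104% (99.2 to 108%) of the adipocyte level, so the intervals did not separate them. In the 71 macrophage-gated nuclei of suffix 1 Plin2 was at 59.9% of the adipocyte level, and in the 67 of aging suffix 2 at 15.1%.

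Of the lipases, Lipe had the most even level, with 1082 and 1131 CPM in the first matrix and 1003, 1195 and 954 CPM in the aging libraries, so that the highest was 1.25-fold above the lowest. Its adipocyte to other ratio was 2.44 and 5.03 in the first matrix, compared with 11.6, 5.36 and 4.44 in the aging libraries. Pnpla2 was at 214 and 134 CPM in the first matrix and at 250, 243 and 244 CPM in the aging libraries, with overlapping intervals among the aging libraries. Its ratio was among the lower ones, at 1.74 (1.58 to 1.91) and 2.59 (2.35 to 2.85) in the first matrix, compared with 6.90, 2.07 and 3.37 in the aging libraries. Abhd5, which switches ATGL on, was at 126 and 331 CPM in the first matrix and 163, 107 and 149 CPM in the aging libraries. In suffix 2 of the first matrix Pnpla2 was thus at its lowest and Abhd5 at its highest of the 5 libraries. Pnpla3, which is strongly induced by feeding and binds Abhd5, was at 683 and 221 CPM in the first matrix and at 658, 333 and 449 CPM in the aging libraries. In the aging matrix it was the member with the highest ratio, 35.6 (32.6 to 38.9) over all libraries, with 487 CPM in adipocyte-gated and 13.7 CPM in the other gated nuclei. The adipocyte gate was the highest for Lipe, Abhd5 and Pnpla3 in 5 of 5 libraries and for Pnpla2 in 4, the exception being suffix 2 of the first matrix, where the 50 Schwann-gated nuclei were at 146 CPM with 17 UMIs.

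**Figure D2:**
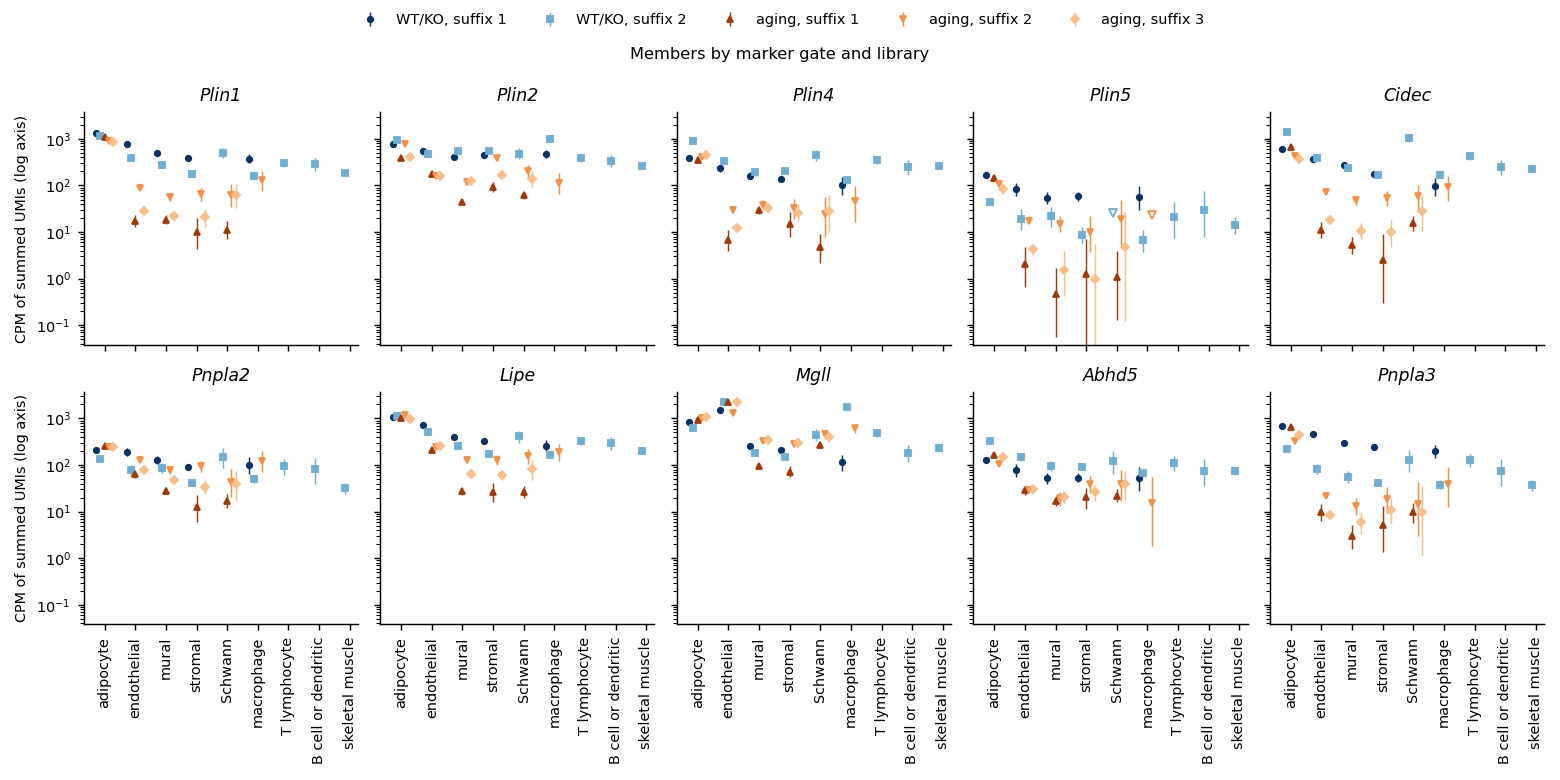
CPM of summed UMIs (log axis) of each member in every marker gate with at least 50 nuclei, with 1 point for each library and exact 95% Poisson intervals; intervals that run below the axis are not drawn to their end, and open triangles mark 0 UMIs at the level that 3 UMIs would give. Most members fall from the adipocyte gate to the others, and Mgll is highest in the endothelial gate in 5 of 5 libraries.

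Mgll differed from the other members, since endothelial-gated nuclei held more of it than adipocytes in every library. Endothelial-gated nuclei had 1489 CPM (n = 107 nuclei) and 2216 CPM in suffixes 1 and 2 of the first matrix and 2209, 1314 and 2218 CPM in the aging libraries, while adipocyte-gated nuclei had 857 and 624 CPM and 939, 1012 and 1083 CPM. This corresponds to 174% (161 to 187%) and 355% (338 to 373%) of the adipocyte level in the first matrix and 235% (224 to 247%), 130% (124 to 136%) and 205% (194 to 217%) in the aging libraries, with no interval reaching 100%. After each nucleus was thinned to 1000 UMIs, which removes depth differences and leaves out shallower nuclei, 65.3 to 80.7% of endothelial-gated nuclei had a Mgll UMI, compared with 39.9 to 61.7% of adipocyte-gated and 5.15 to 26.3% of stromal-gated nuclei. Without thinning the shares were 69.0 to 93.5%, 77.8 to 96.6% and 9.32 to 48.6%, at median depths of 696 to 2779, 2016 to 6212 and 1985 to 3614 UMIs. Thinned endothelial-gated nuclei with a Plin1 UMI ranged from 2.89% to 35.3% between libraries, beside 52.5 to 72.7% of adipocyte-gated nuclei.

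Droplets also catch free RNA from other nuclei, and doublets (droplets with more than 1 nucleus) were not removed. The level of adipocyte genes in the other gates was used as a scale for both together, and the part of each was not tested. The reverse, RNA of other cell types (such as endothelial Mgll) in adipocyte-gated nuclei, was not scaled. The 4 reference genes served for this: their level in endothelial-gated nuclei was 70.4% and 45.2% of the adipocyte level in suffixes 1 and 2 of the first matrix and 2.69%, 16.2% and 6.19% in the aging libraries. Mgll exceeded that percent 2.47- and 7.86-fold in the first matrix, compared with 87.3-, 8.01- and 33.1-fold in the aging libraries. It was the only member that passed 2-fold in the endothelial gate in 5 of 5 libraries, beside 20% of genes tested there. Plin1 lay below the reference in each library, at 58.9%, 34.7%, 1.62%, 9.47% and 3.28% in the same order, which was 0.837, 0.767, 0.601, 0.584 and 0.531 times it. Endothelial Plin2 was at 69.8% and 51.0% in the first matrix, near the reference, but at 45.5%, 21.4% and 37.5% in the aging libraries, of which the first and last were 16.9- and 6.07-fold above it.

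The Schwann gate, with 50, 830, 80 and 64 nuclei in 4 libraries, also held Mgll above the reference in each, at 71.5% of the adipocyte level in suffix 2 of the first matrix and 28.3%, 45.3% and 36.8% in the aging libraries, against 31.6%, 1.18%, 15.4% and 11.4%. No other member passed 2-fold there in all 4, beside 29.9% of genes. In macrophages Mgll was library-dependent: 281% (271 to 291%) of the adipocyte level in the 679 nuclei of suffix 2 in the first matrix, 13.3% (8.67 to 19.5%) in the 71 of suffix 1 and 61.3% (48.5 to 76.5%) in the 67 of aging suffix 2, against reference values of 20%, 34.5% and 21.1%. No member passed in every library in the macrophage gate (28.7% of genes did), the mural gate (49.7%) or the stromal gate (67.4%). Nor did any in the T lymphocyte (36.9%), B cell or dendritic (35.8%) and skeletal muscle (64.3%) gates, each measured in 1 library. Genes proper to these cell types pass as well, and the members' share lay below that of all genes in each of these gates.

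In the stromal gate, which holds fibroblast-type nuclei, 4 members passed 2-fold in each aging library but not in suffix 1 of the first matrix. Of all genes tested, 67.4% passed there in every library. The share for the aging libraries alone is not given, so the 4 are not read as set apart from other genes. Stromal Plin2 was at 58.6% and 57.1% of the adipocyte level in the first matrix and at 24.0%, 51.0% and 40.5% in the aging libraries, which was 1.70-, 2.90-, 35.9-, 4.91- and 12.4-fold above the reference, so that suffix 1 of the first matrix alone kept it from passing. Stromal Mgll was at 0.718 and 1.19 times the reference in the first matrix and at 11.5, 2.70 and 8.30 times in the aging libraries, and Pnpla2 at 1.22 and 1.57 and at 7.53, 3.70 and 4.35 times. Abhd5 was at 1.23 and 1.38 times and at 18.5, 3.49 and 5.29 times. Endothelial Pnpla2 was at 88.9%, 56.9%, 25.3%, 51.6% and 32.6%, which was 1.26-fold above the reference in both libraries of the first matrix and 9.40-, 3.18- and 5.27-fold in the aging libraries. For Lipe the endothelial values were 67.8%, 45.6%, 21.3%, 20.2% and 26.5%, of which the first pair were 0.964- and 1.01-fold the reference and the others 7.92-, 1.24- and 4.28-fold. Endothelial Abhd5 was at 61.0%, 44.1%, 17.6%, 27.2% and 21.0%. The reference percent in these gates reached 70.4% in the first matrix and fell as low as 0.669% in aging suffix 1, and for each value given here the fold over it was largest in aging suffix 1.

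**Figure D3:**
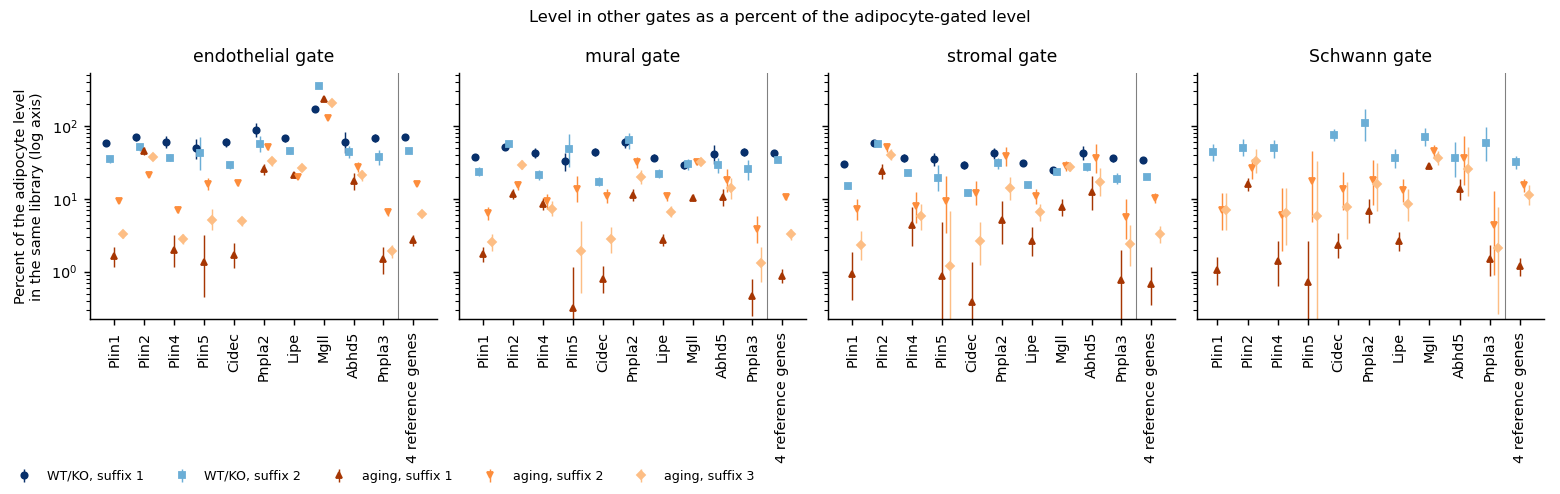
Level of each member in the endothelial, mural, stromal and Schwann gates as a percent (log axis) of its level in adipocyte-gated nuclei of the same library, with exact 95% intervals, beside the same percent of the 4 reference genes (right of the line). Mgll exceeds 100% in the endothelial gate in all 5 libraries, and Plin1 lies below the reference genes there.

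Related genes were taken from 3 lists in order to place the members in the pathway, again with the libraries of a matrix pooled. Of other droplet proteins, 6 of 13 tested were at least 2-fold higher in adipocyte-gated nuclei in the first matrix (median ratio 2.00) and 6 of 12 in the aging matrix (2.35). Cidea, a paralogue of Cidec that enlarges droplets, had 1112 against 264 CPM in the first matrix (ratio 4.21), and Aifm2, which is found on droplets, had 312 against 79.0 CPM (3.95). In the aging matrix the highest were G0s2, an inhibitor of ATGL, at 318 against 19.1 CPM (16.6) and Aifm2 at 243 against 20.1 CPM (12.1). At the other end were Hilpda, another ATGL inhibitor (0.606), and Hsd17b11 (0.577) in the first matrix, and Hsd17b11 (0.433) and Cavin1, a caveolar coat (0.516), in the aging matrix. Of the 3 lists, Hsd17b11 was the only gene called at least 2-fold lower with libraries pooled, in the aging matrix.

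Of triglyceride synthesis enzymes, 7 of 9 tested in the first matrix (median ratio 2.88) and 8 of 8 in the aging matrix (8.87) were at least 2-fold higher in adipocyte-gated nuclei. Dgat2, which adds the last fatty acid, had 487 against 116 CPM (4.22) and 894 against 56.1 CPM (15.9), and Gpam, which adds the first, had 575 against 181 CPM (3.19) and 471 against 30.4 CPM (15.5). The lowest were Dgat1 (1.32) and Gpat3 (1.96) in the first matrix and Agpat3 (3.78) and Agpat2 (5.71) in the aging matrix. Adipocyte-gated nuclei of suffix 2 in the first matrix had 5.30-fold the Dgat1 and 6.97-fold the Gpat3 level of suffix 1. Their pooled ratios thus also carry a difference between libraries. By single library, 6 and 8 of the 9 enzymes were called in suffixes 1 and 2. Of genes that control lipolysis and other lipases, 10 of 14 (2.71) and 9 of 14 (4.83) were higher. The highest were Abhd6, another monoglyceride lipase (118 against 30.4 CPM, 3.87), and Prkar2b, a regulatory subunit of protein kinase A (3076 against 823 CPM, 3.74), in the first matrix and Adrb3, the receptor that starts lipolysis (309 against 13.9 CPM, 22.1), and Prkar2b (2445 against 125 CPM, 19.6) in the aging matrix. The lowest were Prkacb, a catalytic subunit of that kinase (0.995), and Lipa, the lysosomal lipase (1.20), in the first matrix and Fabp4, a fatty acid carrier that endothelium also expresses (0.793), and Prkacb (0.839) in the aging matrix.

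**Figure D4:**
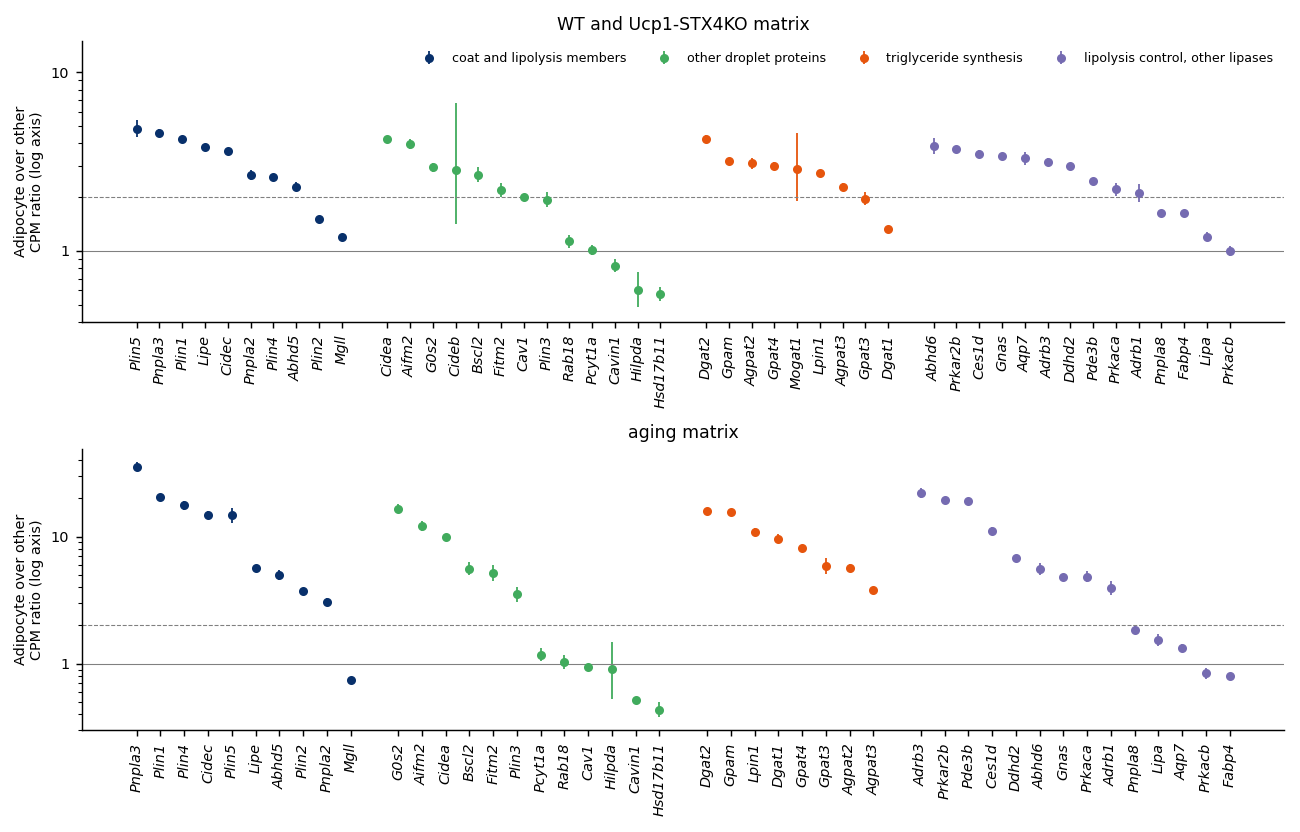
CPM in adipocyte-gated over CPM in the other gated nuclei (log axis), all libraries of a matrix pooled, for the members and 3 lists of related genes, with exact 95% intervals; the dashed line marks 2-fold. Mgll is the lowest member in both matrices, and triglyceride synthesis genes lie above 1 throughout. Pooled ratios also carry differences between libraries.

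Levels in adipocyte-gated nuclei were next compared between the libraries of a matrix, which compares libraries and not genotypes or ages. In the first matrix 6 of 10 members differed by at least 1.5-fold, a share close to that of all genes (55.4%). In suffix 2, Abhd5 was 2.62-fold (2.55 to 2.70), Plin4 2.35-fold (2.31 to 2.40) and Cidec 2.25-fold (2.22 to 2.28) the level in suffix 1. Plin5 was at 0.267 (0.252 to 0.283), Pnpla3 at 0.324 (0.315 to 0.332) and Pnpla2 at 0.627 (0.605 to 0.650) of the suffix 1 level. The coat genes Plin4 and Plin5, which lie side by side, thus differed in opposite directions. Plin1 (0.866), Plin2 (1.22), Lipe (1.05) and Mgll (0.729) remained within 1.5-fold. Over all genes 29.2% of calls were higher in suffix 2. When levels were scaled by the median ratio over genes (0.771), this became 50.6% and the members split into 4 higher and 2 lower, with Plin2 added (1.58) and Pnpla2 lost (0.814).

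Between aging libraries fewer members differed. Suffix 2 against 1 gave 4 of 10 (34.5% of all genes), with Plin2 higher at 1.96 (1.80 to 2.12), and Pnpla3 at 0.506, Cidec at 0.652 and Abhd5 at 0.659. Scaling by the median ratio (0.871) left Plin2 and Pnpla3, and moved the share of all calls that were higher from 39.8 to 62.5%. Suffix 3 against 1 gave 2 lower members (29.1% of genes), Plin5 at 0.559 (0.440 to 0.705) and Cidec at 0.563 (0.505 to 0.627), and for all genes the share of higher calls moved from 41.5 to 60.6% with scaling. Suffix 3 against 2 gave Plin2 alone (19.0% of genes), at 0.544 (0.490 to 0.603), with that share at 53.1 and 43.0%. For these last pairs the members' share lay below that of all genes. Adipocyte-gated nuclei of aging suffixes 2 and 3 held a median of 4 and 5 UMIs of other cell types' markers, beside 21 of adipocyte markers. In aging suffix 1 these medians were 1 and 30. The part of RNA from other cell types in the adipocyte-gated levels was not tested.

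Adipocyte-gated nuclei were then ranked within a library by lists of other genes, and the top 10% were compared with the remainder. A member was called where it differed by 1.5-fold in the same direction in the 4 libraries with at least 50 nuclei in the top (aging suffix 3 had fewer). By a lipogenic list (Acly, Fasn, Acaca, Elovl6 and Me1, enzymes of fatty acid synthesis), Pnpla3 was called, beside 0.913% of 5697 genes. It had 1126 against 617 CPM in suffix 1 of the first matrix (ratio 1.83, 1.79 to 1.87), 374 against 195 CPM in suffix 2 (1.92, 1.81 to 2.04), 1240 against 594 CPM in aging suffix 1 (2.09, 1.83 to 2.38) and 754 against 270 CPM in aging suffix 2 (2.79, 2.37 to 3.27). Pnpla3 was thus higher in lipogenic nuclei in libraries with high and with low overall levels. In aging suffix 2 the top was also higher for Adrb3 (2.15), Plin2 (1.92), Plin1 (1.48) and Cidec (1.48). Top nuclei were deeper than the others. Median UMIs were 8334 against 5973 and 7875 against 4857 in suffixes 1 and 2 of the first matrix. In aging suffixes 1 and 2 they were 2563 against 2470 and 2620 against 1966. The part of depth was not tested beyond thinning, under which the Pnpla3 call stood.

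No member was called by the white-like list (0.474% of genes were), the glycolytic or hypoxia list (0.860%), Ucp1 alone (0.491%) or Rorb alone (0.0176%). The Rorb top held only 350 Rorb UMIs over 455 nuclei in suffix 2 of the first matrix and 27 over 79 in aging suffix 1. Shallow nuclei without a Rorb UMI filled the remainder of these tops (median UMIs 994 against 5377 and 806 against 2621). The Rorb ranking therefore cannot decide whether members differ with Rorb, and no conclusion is drawn from it. In suffix 2 of the first matrix, however, several members differed between nuclei. The share of all genes that did so in this library is not given, so these ratios are not read as particular to the members. By the white-like list (Cyp2e1, Aldh1a1, Nnat, Retn and Cmklr1), the top 455 of its 4553 adipocyte-gated nuclei had 3190 CPM of Cidec against 1125 (ratio 2.84, 2.77 to 2.90), 457 CPM of Pnpla3 against 187 (2.44) and 1608 CPM of Plin4 against 804 (2.00). They had less Plin2, at 436 against 1023 CPM (0.426, 0.404 to 0.448), and less Plin5, at 15.2 against 49.3 CPM (0.309, 0.230 to 0.407). Pnpla2 (1.55), Mgll (1.46), Lipe (1.41) and Plin1 (1.33) were higher to a lesser degree, and Abhd5 was at 1.01. Ucp1 was at 0.152 and Cidea at 0.192 in the same nuclei, whereas Adrb3 was at 1.87. Ranked by Ucp1, the top nuclei of this library showed the reverse, with Cidec at 361 against 1552 CPM (0.233), Plin4 at 0.468, Pnpla3 at 0.372 and Plin2 at 1.68 (1.64 to 1.73). Pnpla2 (0.495), Lipe (0.657), Mgll (0.668) and Plin1 (0.764) were lower there too. The 2 rankings are not independent, since the white-like top was itself low in Ucp1. The glycolytic or hypoxia list (Hk2, Pfkp, Ldha, Slc2a1, Pdk1 and Bnip3) gave Cidec at 438 against 1499 CPM (0.292) and Plin2 at 1409 against 893 CPM (1.58). Plin4 (0.530), Pnpla2 (0.592) and Pnpla3 (0.618) were also lower in that top.

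Aging suffix 1 resembled suffix 2 of the first matrix in part. Its white-like top of 79 nuclei had Cidec at 1185 against 598 CPM (ratio 1.98, 1.75 to 2.24), Plin4 at 1.56 (1.28 to 1.88) and Abhd5 at 2.10 (1.62 to 2.69), with Ucp1 at 0.449, Cidea at 0.504 and Adrb3 at 1.97, but Plin2 was at 1.29 (1.06 to 1.56) and Pnpla3 at 0.999. In suffix 1 of the first matrix the same list gave 728 against 603 CPM of Cidec (1.21), 468 against 376 CPM of Plin4 (1.25) and 723 against 787 CPM of Plin2 (0.918). In aging suffix 2 Cidec was at 1.02 and Plin4 at 0.995, with intervals that held 1. These tops differed in how far they expressed the list itself: Cyp2e1 was at 1129 CPM in the top of suffix 2 and 63.1 CPM in that of suffix 1 in the first matrix, and at 778 CPM in aging suffix 1 and 54.7 CPM in aging suffix 2, where the top held 15 Cyp2e1 UMIs and the remainder had 0 UMIs of each list gene. The smaller ratios thus belong to tops with little of the list, and the part of this was not tested.

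The Ucp1 ranking also gave different results by library. Suffix 1 of the first matrix had Cidec at 0.966, Plin4 at 0.914 and Plin2 at 1.03, and aging suffix 1 had Cidec at 1.03, Plin4 at 1.09 and Plin2 at 1.25 (1.03 to 1.51). In aging suffix 2 the Ucp1 top was higher for Plin2 at 1.55 (1.37 to 1.76), as in suffix 2 of the first matrix, but also for Pnpla3 at 1.69 (1.40 to 2.03) and Cidec at 1.44 (1.21 to 1.70), where suffix 2 of the first matrix was lower. Plin1 (1.26), Plin4 (1.32) and Adrb3 (1.38) were higher there too, whereas Pnpla2 (0.951) and Mgll (0.995) were not. These Ucp1 tops were deeper than the remainder. Median UMIs were 2633 against 1944 in aging suffix 2 and 7962 against 4863 in suffix 2 of the first matrix. The part of depth in these ratios was not tested. The libraries were not compared by a test, since each is 1 sample, and the top 10% is a range of a score and not a cell type.

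**Figure D5:**
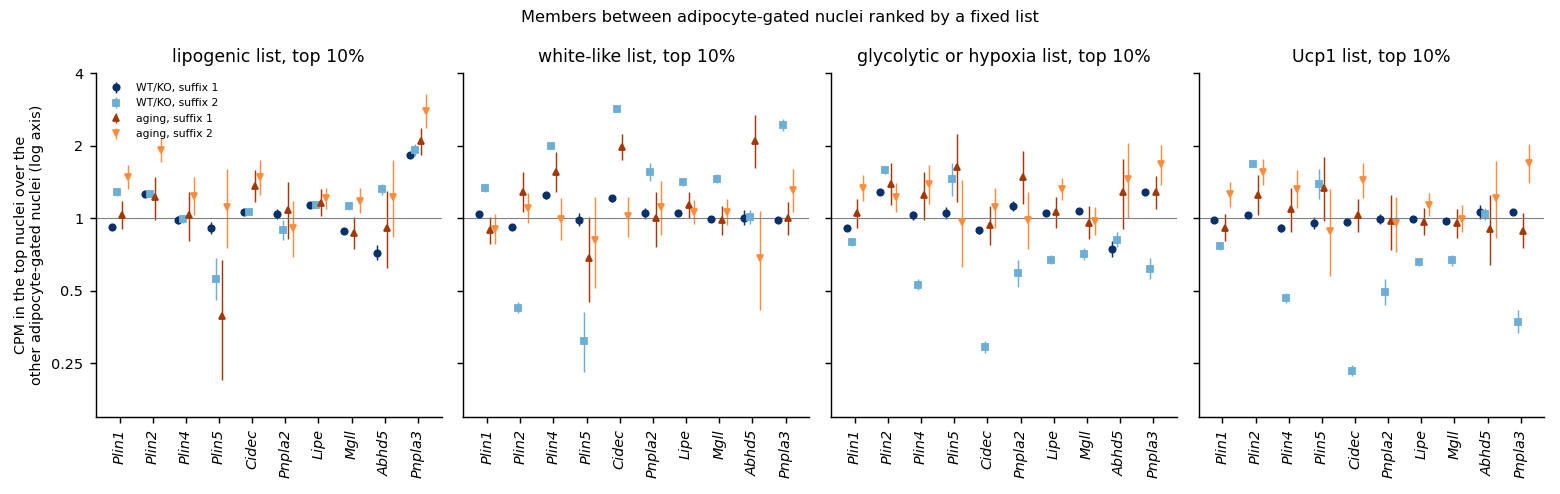
CPM in the top 10% of adipocyte-gated nuclei over CPM in the remainder (log axis), by 4 lists and for the 4 libraries with at least 50 top nuclei, with exact 95% intervals. Pnpla3 is above 1.5 in the lipogenic panel in each library, and suffix 2 of the WT and Ucp1-STX4KO matrix (light blue) is the lowest of the 4 libraries for Cidec and Plin4 in the glycolytic or hypoxia and Ucp1 panels.

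The genes whose levels most resembled each member were found over 30 profiles, each a gate in a library, among 10983 genes, by Pearson r of log2(CPM + 5). The profiles share libraries, depth and free RNA, so r is given as a description. For Plin1 they were Clstn3 (0.986), Aifm2 (0.985) and Prkar2b (0.984), for Cidec Tmem45b (0.977), the gate marker Acsl1 (0.974) and Nrg4 (0.970), and for Pnpla3 Aifm2 (0.967), Slc36a2 (0.959) and Lgr6 (0.957). Plin4 was most like Apol6 (0.961), Ctcflos (0.958) and Prkar2b (0.958), and Plin5 most like A530016L24Rik (0.954), Bbof1 (0.949) and Rassf6 (0.945). The lipolysis genes had other neighbours: Lipe was most like Adipor2 (0.959), Ppp2r5a (0.958) and Mknk2 (0.932), Abhd5 like the gate marker Acvr1c (0.937) and Dhrs9 (0.933), and Pnpla2 like Thrsp (0.934), Agpat2 (0.916) and 1700037H04Rik (0.914). Plin2 had weaker matches, with Sgpl1 (0.889), Por (0.876) and Grina (0.874). Among the members themselves, Plin1 was closest to Cidec (0.954) and Pnpla3 (0.954), and Cidec to Plin4 (0.934) after Plin1. Mgll stood apart, with r of 0.130 to 0.541 to the other members, and its nearest genes were Tbc1d2 (0.904), Sybu (0.811) and Plxna2 (0.809).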

How the data were processed

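The authors deposited raw UMI counts, made with the 10x 3′ assay and Cell Ranger 6.1.2 against mm10 (the annotation release, intron counting and strand setting are not given in the sources used here). The filter given in the methods (200 to 2000 UMIs, 100 to 3000 genes) leaves 0 nuclei of 1 library, so its lower limits alone were used, which kept all nuclei but those of aging suffix 1 (7842 of 10000). No doublets were called or removed. Nuclei were gated in each library by a Poisson model of 60 markers (posterior of at least 0.95, at least 2 own markers). The gate model was set after the files were seen. Genes with at least 50 UMIs in a comparison were tested against its fold. The members and lists were chosen with earlier results of these data known. Named genes are the members, the highest and lowest 2 of each list, and the 3 genes most like each member, of which 1 is not reported here. Python 3.11.15, numpy 2.4.6, scipy 1.17.1, pandas 2.3.3 and scanpy 1.11.5 were used. Gates and intervals were tested on Poisson counts simulated from the summed profiles of these data. Free RNA, doublets and spread of levels between nuclei were not modelled, so the simulation cannot show their effect. Exact intervals (Poisson, conditional binomial, Clopper-Pearson) cover counting error only. Positions are from a GRCm38 annotation, promoters from RefSeq (GRCm38.p6). Alternatives were clusters named by gate, 1 more marker, thinning, the stated range, mean CPM per nucleus, other folds, scaling, and other state cuts.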

Additional observations from a re-analysis of the deposited data

How the results depend on the processing

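Of 72 recomputed counts of members behind the main results, 59 stayed within 1.5 times the reported count and none changed direction. The other recomputed results were less stable: 160 were classed as moved and 150 as the same. In the WT and Ucp1-STX4KO matrix, 5 members were at least 3-fold higher in adipocyte-gated nuclei, beside 8 at 2-fold. A 2-fold limit left 0 members differing between any pair of aging libraries. Scaling by the median ratio left 2 for suffix 2 against 1, clusters gave 4 for suffix 3 against 1 (Plin1 and Pnpla3 added), and thinning gave 2 for suffix 3 against 2 (Plin5 added). With clusters in place of the gates, 2 members (Plin2 and Mgll) passed the reference in macrophages and 1 (Mgll) in skeletal muscle, but the macrophage libraries changed too, to suffix 2 of the first matrix and aging suffix 3, so that the library with the lowest Mgll dropped out. Another alternative left out nuclei of the other gates that had at least 2 adipocyte markers. No such gate of the first matrix then kept 50 nuclei, so aging libraries alone were used. There, 2 members passed in the endothelial gate (Pnpla2 and Mgll), 2 in the mural gate (Pnpla2 and Mgll), 4 in the stromal gate (Plin2, Pnpla2, Abhd5 and Mgll) and 3 in the Schwann gate (Plin2, Abhd5 and Mgll). The share of all genes under these alternatives is not given, so such counts show only how the calls move with the processing. Mgll passed in the endothelial gate, and Pnpla3 in lipogenic nuclei, under each alternative run. With fewer libraries a member passes more easily, and the cause of the other shifts was not tested. No paired analysis was possible because each condition has 1 library and the suffix is tied to no sample. Counts were low in the aging libraries, with 94 UMIs of Plin5 in the 441 adipocyte-gated nuclei of suffix 3.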
